A study of Mus musculus with 6 samples.

Results

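Forkhead (Fox) genes encode transcription factors that share a winged-helix DNA-binding domain and are sorted by letter into subfamilies. Every probe of the array assigned to a single gene whose symbol follows the mouse Fox nomenclature was taken, and the brightest probe stood for a gene, which gave 38 members out of 13840 named genes. Of these members 37 had 1 probe, and Foxk1 had 2.

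The RNA came from mouse embryos at embryonic day 10.5, from the presomitic mesoderm, where somites have not yet formed. Nrarp knockout embryos, in which LacZ stands in place of the Nrarp coding sequence, were compared with wild-type littermates, both from crosses of heterozygous parents. There were 3 arrays for the knockout and 3 for wild type, each read in 1 colour and carrying a replicate number. Nrarp is a small ankyrin-repeat protein, itself a Notch target, that dampens Notch signalling, and the allele replaces it in the whole embryo. For each genotype 12 presomitic mesoderms had been collected, and their division among the arrays is not stated. The p-values therefore reflect the spread among 6 arrays, part or all of which may be technical.

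Nrarp itself read 14.3, 42.5 and 23.3 in knockout tissue, against 318, 429 and 448 in wild-type tissue, in units of scaled intensity, where the array medians lie between 0.981 and 0.993. Of 10 presomitic mesoderm markers 8 were well above background on all 6 arrays, by the rule explained with the levels given next. The other 2, named here after their values were seen, were far brighter on the replicate 1 arrays of both genotypes. Msgn1 read 50.1, 3.18 and 4.30 in the knockout against 50.2, 3.59 and 2.80 in wild type, and Hes7 read 64.1, 1.63 and 1.19 in the knockout against 54.2, 1.36 and 2.09 in wild type. The replicate 1 arrays thus stood apart from the others in both genotypes. Array sums lay between 1019520 and 1125059. With 3 arrays a genotype, precision is limited throughout by their number.

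In the mouse, Foxc1 and Foxc2 act together in paraxial mesoderm and are required for somites to form, and embryos without both genes lack segmentation and the genes that mark segment borders. Other members mark the tissues around it: Foxa2 the notochord, floor plate and gut endoderm, Foxf1 the lateral plate, Foxd3 the neural crest, and Foxb1 parts of the neural tube. A further set (subfamilies J, K, M, N, O and P) acts in many cell types, in the cell cycle, in the response to growth factors or as repressors.

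Which members are expressed was judged against probes for odorant, pheromone and taste receptors, whose known use is in sensory cells. On each array the 95th percentile of 885 such probes served as a guide to background, and it lay between 2.54 and 3.41. A member was called well above background if it exceeded this level on all 6 arrays. By this rule 9 of 38 members (23.7%) were well above background, namely Foxa2, Foxc1, Foxc2, Foxd1, Foxh1, Foxj1, Foxn3, Foxo1 and Foxp1. Over all named genes the share was 37.2%. A further 7 members exceeded background on some arrays and 22 on none. Brightness differs between probes for reasons other than RNA amount, so no order of expression among members is drawn from it.

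**Figure D1:**
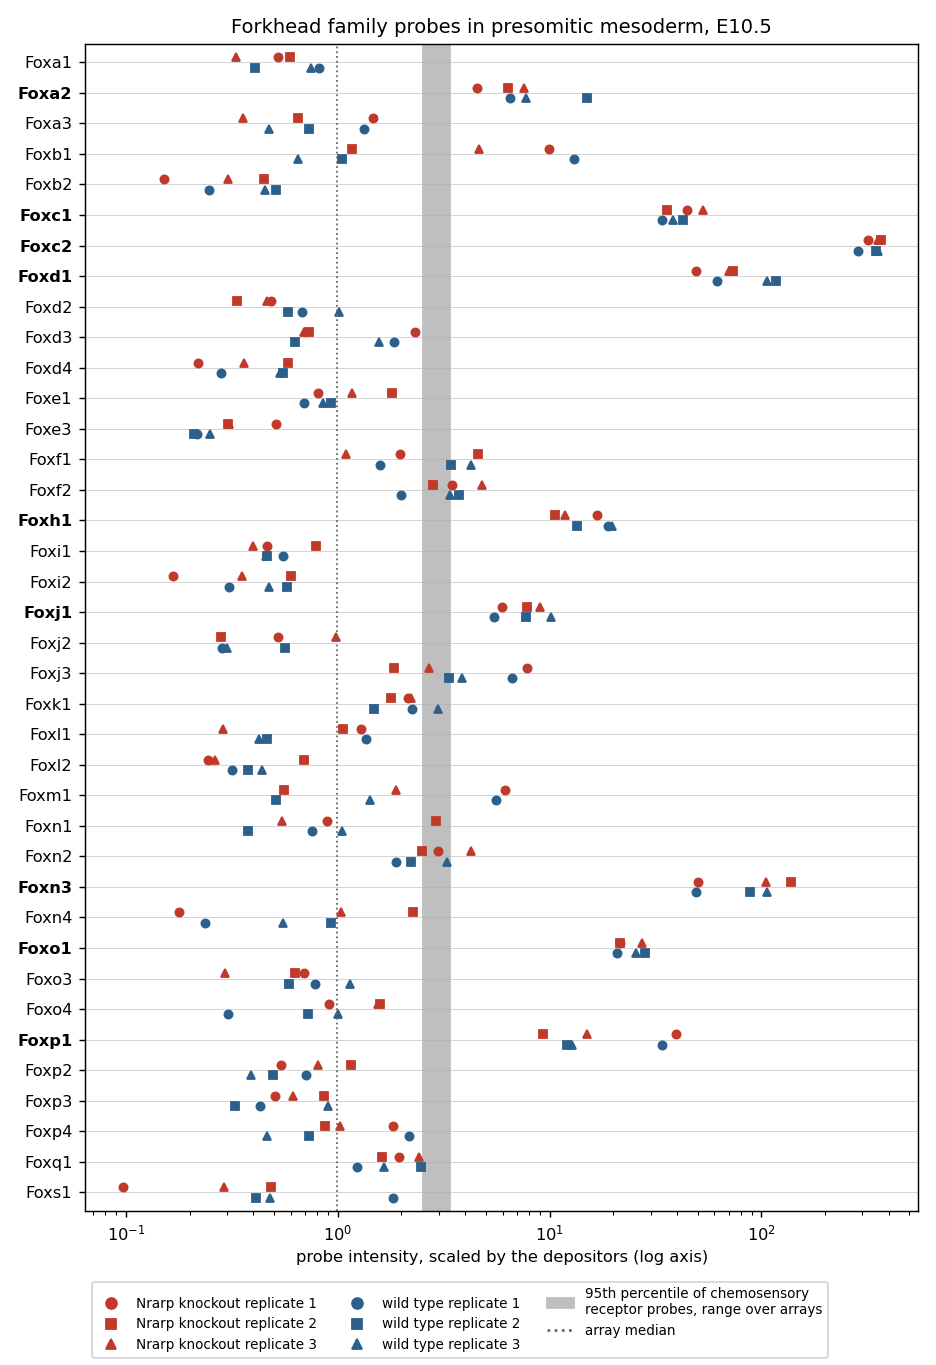
Scaled probe intensity (horizontal log axis) of the 38 Fox members on the 3 knockout arrays (red, upper row of each gene) and the 3 wild-type arrays (blue, lower row), with 1 marker shape per replicate number. The 9 members in bold lie to the right of the grey band, which spans 2.54 to 3.41, on all 6 arrays, while 22 members were below background on every array.

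Both paraxial mesoderm members were well above background. Foxc2 read 318, 365 and 356 in the knockout and 285, 349 and 356 in wild type. It was the steadiest of all members, its highest array exceeding its lowest by a factor of 1.28, and the groups overlapped. Foxc1 read 44.5, 35.7 and 53.2 in the knockout, against 33.9, 42.6 and 38.2 in wild type, and its groups overlapped as well.

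Neither Foxc gene passed the test between genotypes. Foxc2 averaged 347 ± 25.0 in the knockout and 330 ± 38.9 in wild type (SD, n = 3 each), a log2 difference of 0.08. Differences here are knockout minus wild type, and adjusted p-values come from limma with Benjamini-Hochberg adjustment over all 33012 probes. Foxc1 averaged 44.5 ± 8.77 in the knockout and 38.2 ± 4.35 in wild type (SD, n = 3 each), a log2 difference of 0.20. Both had a limma adjusted p of 1.00. With the replicate number as a block the 95% interval was -0.14 to 0.29 for Foxc2 and -0.16 to 0.57 for Foxc1, which in folds is 0.910 to 1.22 and 0.894 to 1.49. Without the block the intervals were -0.39 to 0.55 for Foxc2 and -0.45 to 0.85 for Foxc1.

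Genes that act beside the Foxc factors were detected in part. Of 18 measured genes of paraxial segmentation, 10 (55.6%) were well above background, against 37.2% of all named genes, among them Tbx6, Mesp1, Mesp2, Tcf15 and Meox1. Notch1, Efnb2 and Uncx were below background on every array, and Notch1 was also below every array median. A reading below background does not by itself show that a gene is not expressed. Among the 18 the log2 difference was above 0 for 9 and below 0 for 9. Its median was 0.03, where all probes had a median of -0.01. The summed intensity of the list was 1980, 2124 and 2071 in the knockout and 1687, 1995 and 1912 in wild type. The F-test of replicate number, described further on, called 11 of the 18 (61.1%), with 9 higher and 2 lower on the replicate 1 arrays. The share called was 58.2% of all genes well above background and 27.8% of all probes. Between genotypes 1 of the 18 was higher in the knockout by the test with the block, the Notch target Hes5 (limma adjusted p = 0.00578), and without it none. At an unadjusted limma p under 0.05 the list held 4 genes with and 1 without the block, against 3.75% and 0.657% of all probes. Mesp2, which sets segment borders, differed by 0.56 and did not pass (limma adjusted p = 1.00). Without the block Mesp2 and Hes5 had the smallest unadjusted p of the list. With it Aldh1a2, the retinoic acid synthesis enzyme, named here after its values were seen, came after Hes5. Aldh1a2 read 78.5, 9.22 and 8.46 in the knockout against 24.3, 3.57 and 5.48 in wild type, higher in all 3 pairs. Its unadjusted blocked p was 0.000357 and its limma adjusted p 0.999.

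Foxd1, a factor of kidney stroma and of the developing retina in the mouse, had the smallest p-value of the family once replicate numbers were in the model. It read 48.9, 73.8 and 70.3 in the knockout, against 62.0, 117 and 107 in wild type. The knockout array of each number was lower than its wild-type counterpart, by log2 differences of -0.34, -0.67 and -0.61, but the groups overlapped, since wild-type replicate 1 lay below knockout replicates 2 and 3. The mean was 64.3 ± 13.5 in the knockout and 95.4 ± 29.4 in wild type (SD, n = 3 each), a log2 difference of -0.54. With the block the 95% interval was -0.80 to -0.28 and the unadjusted limma p was 0.0013, but the limma adjusted p was 0.999 and ranged from 0.444 to 1.00 over all alternatives. Without the block the unadjusted p was 0.146 and the limma adjusted p 1.00. The exact permutation test gave p = 0.3 (two-sided), where 0.1 is the smallest that 3 against 3 arrays allow. Foxd1 therefore did not pass, although its sign was negative in all 18 alternatives.

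Foxh1 and Foxa2 were lower in each pair as well and did not pass either. Foxh1, a partner of Smad proteins in Nodal and activin signalling, read 16.7, 10.7 and 11.9 in the knockout against 18.8, 13.4 and 19.6 in wild type. The log2 difference was -0.41 and the groups overlapped. Foxa2, which specifies notochord, floor plate and endoderm, read 4.54, 6.40 and 7.56 in the knockout against 6.48, 15.1 and 7.79 in wild type. Its log2 difference was -0.60, and without wild-type replicate 2, the highest array, it was -0.23. With the block the unadjusted limma p was 0.0354 for Foxh1 and 0.0392 for Foxa2, and the limma adjusted p was 0.999 for each (over all alternatives 0.513 to 1.00 and 0.741 to 1.00). In the fit without the block the unadjusted limma p was 0.255 for Foxh1 and 0.210 for Foxa2. The exact permutation test gave p = 0.2 (two-sided) for each.

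Markers of the tissues that Foxa2 specifies were detected about as often as other genes. Of 11 measured notochord, floor plate and endoderm markers 4 (36.4%) were well above background, against 37.2% of all named genes, namely Chrd, Cdx2, Epcam and Cldn6, and Chrd, Cdx2 and Epcam are also known from other tissues of the tail. Shh, the signal of notochord and floor plate, was below background on all arrays, at 0.688, 1.17 and 1.00 in the knockout against 0.647, 0.654 and 1.19 in wild type, and T and Noto were not analysed here. In the knockout 4 of the 11 had a higher and 7 a lower mean, and the median log2 difference was -0.01. Its summed intensity was 303, 118 and 119 in the knockout and 278, 133 and 138 in wild type. In these bulk samples fewer cells of a type and less RNA per cell cannot be told apart, and the part of such cells in the Foxa2 values was not tested.

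Foxj1, which switches on the genes of motile cilia, was above background on all arrays, while no measured gene of a motile cilium list was. It read 5.97, 7.79 and 9.05 in the knockout against 5.46, 7.70 and 10.1 in wild type, and the log2 difference was -0.01 (95% interval with the block -0.43 to 0.41, limma adjusted p = 0.999). Of 11 measured motile cilium genes 0 were well above background, against 37.2% of all named genes. Their summed intensity was 11.4 to 12.8 in the knockout and 12.2 to 17.8 in wild type. The sum of 17.8 was that of wild-type replicate 2, where Tekt2 read 8.24, against 0.467 to 1.09 on the other arrays. Among the 11 genes the mean was higher in the knockout for 6 and lower for 5 (median log2 difference 0.03). There were 0 calls in either limma fit and 0 at an unadjusted p under 0.05.

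The 3 remaining members well above background belong to the broadly acting subfamilies. Foxn3, a repressor linked to cell cycle checkpoints, read 50.5, 138 and 106 in the knockout against 49.4, 88.1 and 106 in wild type. Foxo1, which is held out of the nucleus by insulin and growth factor signalling, read 21.6, 21.5 and 27.4 in the knockout against 20.8, 28.4 and 25.6 in wild type. Foxp1, a repressor with roles in heart, lymphocytes and motor neurons, read 39.5, 9.29 and 14.96 in the knockout against 33.9, 12.1 and 12.8 in wild type. The groups overlapped for all 3 genes, and for Foxp1 both replicate 1 arrays of both genotypes stood above the other 4. The log2 differences were 0.23 for Foxn3, -0.08 for Foxo1 and 0.02 for Foxp1, with blocked 95% intervals of -0.11 to 0.56, -0.43 to 0.26 and -0.37 to 0.41. None of the 3 passed in limma, and each changed sign with at least 1 array left out.

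Known targets of the FoxO subfamily gave 0 calls. Of 16 measured FoxO target genes 5 (31.2%) were well above background (Gadd45a, Sod2, Sesn3, Cited2 and Klf2), against 37.2% of all named genes. In the knockout 7 of the 16 had a higher and 9 a lower mean (median log2 difference -0.06). At an unadjusted limma p under 0.05 the list held 1 gene without and 2 with the block, against 0.657% and 3.75% of all probes. Without the block the smallest unadjusted p-values belonged to Pck1 and Cdkn1b, both below background on every array. The 2 genes with the block were Pck1 and Cited2, the second well above background, named after its values were seen, and higher in all 3 pairs. The blocked fit gave Cited2 an unadjusted p of 0.039 and a limma adjusted p of 0.999. The other measured FoxO genes were dim. Foxo4 read 0.914, 1.59 and 1.54 in the knockout against 0.304, 0.723 and 1.00 in wild type, below background on every array and higher in the knockout of each pair. Its unadjusted limma p was 0.0925 without and 0.0341 with the block (limma adjusted p = 1.00 and 0.999). Foxo3 ranged from 0.293 to 0.694 in the knockout and from 0.590 to 1.14 in wild type, also below background.

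**Figure D2:**
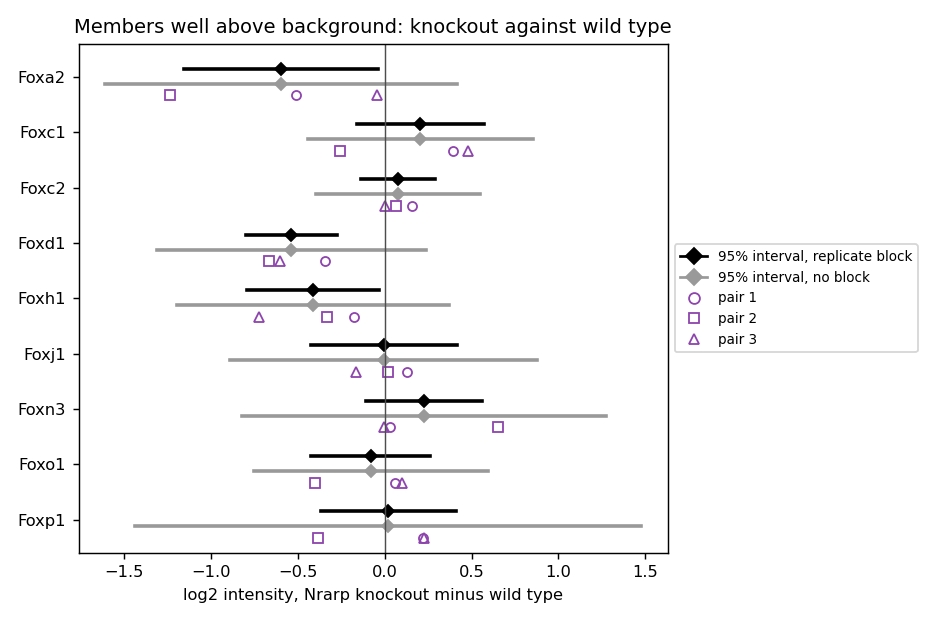
Log2 difference, knockout minus wild type, of the 9 members well above background. Diamonds with bars give the estimate and its 95% interval with the replicate block (black) and without it (grey), and open purple symbols give the 3 replicate pairs. With the block the bars of Foxa2, Foxd1 and Foxh1 lie left of 0, with Foxd1 at -0.80 to -0.28, and without it all 9 bars cross 0.

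Across the family the comparison of genotypes gave no call. Without the block limma called 0 of 38 members, and over all probes it called 0 of 33012 (0%). At an unadjusted p under 0.05 the count was 0 members, against 0.657% of all probes, and the smallest member p was 0.0912. With the block limma again called 0 members, against 2 of all probes (0.00606%). At an unadjusted p under 0.05 the blocked fit had 4 members (10.5%), Foxa2, Foxd1, Foxh1 and Foxo4, against 3.75% of all probes. That count was 2 (Foxd2 and Foxo4) where the variance prior ignored the intensity level. In simulated data for this comparison, run on 33012 probes, none of the seeded 2-fold (0%) or 4-fold (0%) changes was called without the block. With it, 52.2% of the 2-fold and 87.6% of the 4-fold changes were called. Each run held 200 changed probes, whereas the blocked fit of the measured arrays called 2 probes. The changed probes were drawn only from those with a mean log2 above the median of all probes. Of the Fox members 9 were below the median on every array, and 22 were never above background. Whether a change of these sizes in a Fox member would be called was not tested.

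Signs were spread evenly over the members. The log2 difference was positive for 20 and negative for 18 members, with a median of 0.05 against -0.01 over all probes. In all 3 pairs 6 members were higher in the knockout (Foxc2, Foxe1, Foxe3, Foxm1, Foxn2 and Foxo4) and 5 lower (Foxa2, Foxb2, Foxd1, Foxd2 and Foxh1). These 11 are 28.9% of the members, against 23.7% of all probes. For Foxc2 the third pair differed by 0.0023. Among the 9 members well above background 4 kept 1 sign (44.4%), against 23.1% of all genes well above background.

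The groups did not overlap for 2 members (5.26%), against 3.78% of all probes, and both were below background on every array. Foxd2, expressed in facial and kidney mesenchyme in the mouse, read 0.484, 0.336 and 0.464 in the knockout against 0.681, 0.581 and 1.02 in wild type. Foxe3, a lens gene, read 0.509, 0.304 and 0.308 in the knockout against 0.217, 0.210 and 0.249 in wild type. Foxd2 and Foxe3 are next to each other on chromosome 4, and their probes differed in opposite directions. The exact permutation test gave p = 0.1 (two-sided) for each, the smallest possible, and the limma adjusted p was 1.00 for each. At readings this low no fold change is given.

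Of the members above background on some arrays, those of the lateral plate were near the limit. Foxf1 read 1.96, 4.57 and 1.09 in the knockout against 1.58, 3.44 and 4.27 in wild type. Foxf2, a gene of gut and facial mesenchyme, read 3.45, 2.83 and 4.82 in the knockout against 1.99, 3.73 and 3.39 in wild type. Neither gene separated the groups. Of 10 measured lateral plate and splanchnic markers 2 (Bmp4 and Pitx1) were well above background (20%), against 37.2% of all named genes. Another 2 (Tbx5 and Tbx4) were below the array median on all arrays. The mean was higher in the knockout for 5 and lower for 5 (median log2 difference -0.06), and the list summed to 26.5 to 31.5 in the knockout and 22.6 to 26.0 in wild type. Most of that gap lay in Pitx1, a hindlimb factor, which read 7.64, 14.8 and 17.04 in the knockout against 5.71, 9.46 and 8.93 in wild type. Pitx1 was the 1 gene of the list with an unadjusted limma p under 0.05 with the block (0.00515, limma adjusted p = 0.999), and none had one without it. Over all probes the shares were 3.75% with and 0.657% without the block.

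Foxb1, Foxj3 and Foxm1 were brightest on the replicate 1 arrays. Foxb1 read 9.95, 1.17 and 4.65 in the knockout against 13.1, 1.05 and 0.647 in wild type. Foxj3, known from muscle and sperm development, read 7.86, 1.84 and 2.70 in the knockout against 6.68, 3.35 and 3.86 in wild type, below background on 1 array only, knockout replicate 2. Foxm1, the activator of genes for mitosis, read 6.14, 0.560 and 1.88 in the knockout against 5.61, 0.511 and 1.43 in wild type, and so was above background on both replicate 1 arrays and on none of the other 4. Foxn2 read 2.97, 2.49 and 4.27 in the knockout against 1.88, 2.21 and 3.28 in wild type, and Foxn1, a thymus and skin gene, read 0.890, 2.91 and 0.546 in the knockout against 0.753, 0.375 and 1.05 in wild type, above background on knockout replicate 2 alone.

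The remaining members gave no reading above background. Foxk1 (1.79 to 2.21 in the knockout, 1.48 to 2.98 in wild type) and Foxq1 (1.61 to 2.41 in the knockout, 1.24 to 2.47 in wild type) were above the array median on all 6 arrays but below background. The second Foxk1 probe was dimmer, at 0.144 to 1.13 in the knockout and 0.282 to 1.37 in wild type. Below the array median on every array were Foxa1, Foxb2, Foxd4, Foxe3, Foxi1, Foxi2, Foxj2, Foxl2 and Foxp3, which include genes of liver, ear, ovary and regulatory T cells. Their readings ranged from 0.151 to 0.978 in the knockout and from 0.210 to 0.897 in wild type. The others, Foxa3, Foxd3, Foxe1, Foxl1, Foxn4, Foxp2, Foxp4 and Foxs1, together with Foxd2, Foxo3 and Foxo4 described with their readings, crossed the median on some arrays. The highest reading among Foxa3, Foxd3, Foxe1, Foxl1, Foxp2 and Foxp4 was 2.32 in the knockout (Foxd3) and 2.16 in wild type (Foxp4). Foxs1 had the smallest unadjusted p without the block (0.0912), from readings of 0.0969, 0.483 and 0.289 in the knockout and 1.83, 0.410 and 0.478 in wild type, where the single high array is wild-type replicate 1.

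Markers of the tissues that several dim members are known from were dim as well, with exceptions. Of 8 measured forebrain markers 0 were well above background, with summed intensity of 8.0 to 12.7 in the knockout and 10.5 to 15.1 in wild type. Of 4 measured neural crest markers, the tissue of Foxd3, 1 (Isl1, which other tissues also express) was well above background, and 1 (Ets1) was below the array median on all arrays. Foxd3 itself ranged from 0.694 to 2.32 in the knockout and from 0.626 to 1.84 in wild type. Of 8 measured surface ectoderm markers 5 (62.5%) were well above background (Krt8, Krt18, Krt5, Krt14 and Cdh1), against 37.2% of all named genes. Trp63 and Grhl2 were below background on every array, and Krt15 exceeded it on 1. Foxi1, Foxi2 and Foxn1 were not well above background. Endothelial markers (4 of 10 well above background) and blood markers (5 of 7) were present too. None of the markers in these lists passed the test between genotypes in either limma fit. An unadjusted p under 0.05 occurred only with the block and only for 2 forebrain genes, Dlx1 (log2 difference -0.78) and Six3 (-0.76). With the block 3.75% of all probes had such a p.

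In 2 of the 3 groups of neighbouring Fox genes the members differed in whether they could be detected, and in the third, Foxd2 and Foxe3, both were below background on every array. In the RefSeq annotation of GRCm38.p6, used here for the order of genes only, Foxf1, Foxc2 and Foxl1 are neighbours on chromosome 8, with Mthfsd between Foxf1 and Foxc2. Of these Foxc2 was well above background, Foxf1 was above it on 3 of 6 arrays and Foxl1 on 0. Foxq1, Foxf2 and Foxc1 follow each other on chromosome 13, where Foxc1 was well above background, Foxf2 was above it on 4 arrays and Foxq1 on 0. In these 2 groups the Foxc gene was the one above background on all arrays.

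The replicate number separated more Fox genes than the genotype did. An F-test of the replicate-number term in limma, with genotype in the model, called 7 of 38 members (18.4%), against 27.8% of all probes. Among the members well above background it called 3 of 9 (33.3%), against 58.2% of all genes well above background, so that the family share was not above that of other genes. Foxp1 (limma adjusted p = 0.000642), Foxm1 (0.0009), Foxb1 (0.0112) and Foxj3 (0.0197) were higher on the replicate 1 arrays of both genotypes. Foxn3 (0.00214), Foxd1 (0.00694) and Foxn4 (0.022) were lower there. Foxn4, a gene of retina and spinal interneurons, read 0.179, 2.27 and 1.04 in the knockout and 0.236, 0.932 and 0.554 in wild type, below background throughout.

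**Figure D3:**
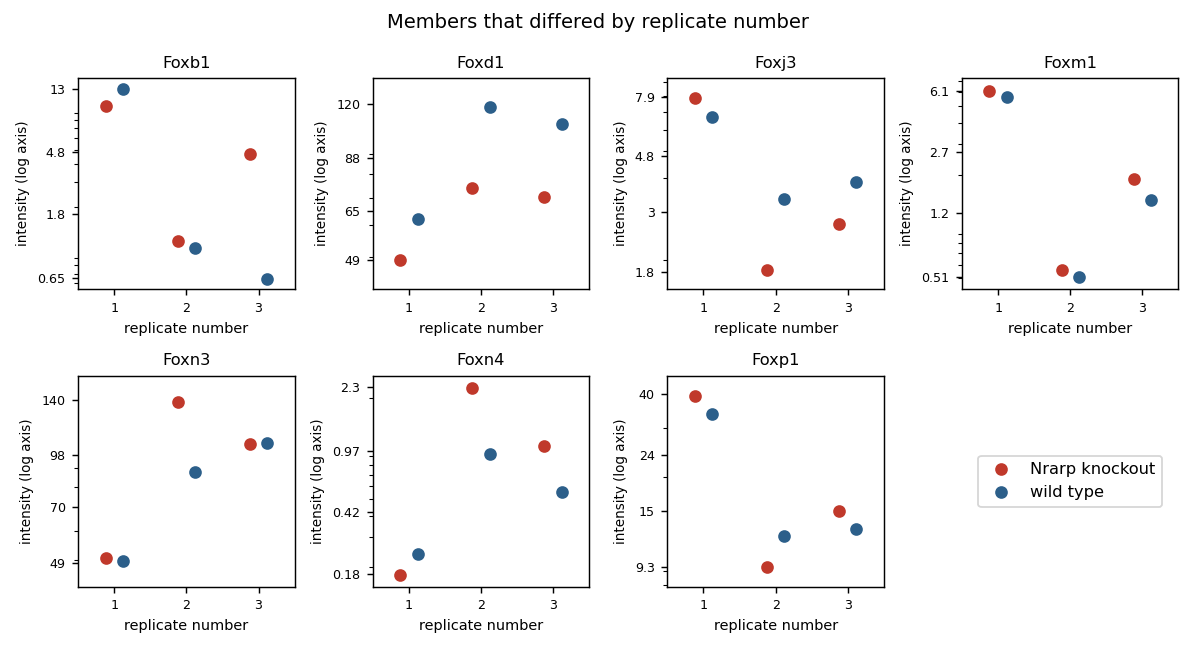
Scaled intensity (log axis, different for each gene) by replicate number for the 7 members called by the F-test of replicate number, with knockout arrays in red to the left of wild-type arrays in blue. Foxp1, Foxm1, Foxb1 and Foxj3 were highest on both replicate 1 arrays, and Foxn3, Foxd1 and Foxn4 lowest.

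The replicate 1 arrays also had a wider spread of intensities, with 75th percentiles of 9.71 in the knockout and 8.88 in wild type against 4.90 to 5.88 on the other 4 arrays. Genes well above background were on those arrays higher by a median log2 of 0.37 under the deposited scaling, and at -0.11 after quantile normalization and -0.40 after centring on 75th percentiles. Called under all 3 scalings were 4 members, Foxd1, Foxm1, Foxn3 and Foxp1, each with the same direction. Foxm1 exceeded its mean on the other arrays by a log2 of 2.65, 2.24 and 1.87 under the 3 scalings in that order, and Foxp1 by 1.59, 1.01 and 0.82. Foxn3 was lower on replicate 1 by log2 values of -1.11, -1.41 and -1.89, and Foxd1 by -0.71, -1.01 and -1.48. Foxh1 changed direction, at 0.39, -0.34 and -0.38. Without the intensity trend only Foxm1 was called (limma adjusted p = 0.049).

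**Figure D4:**
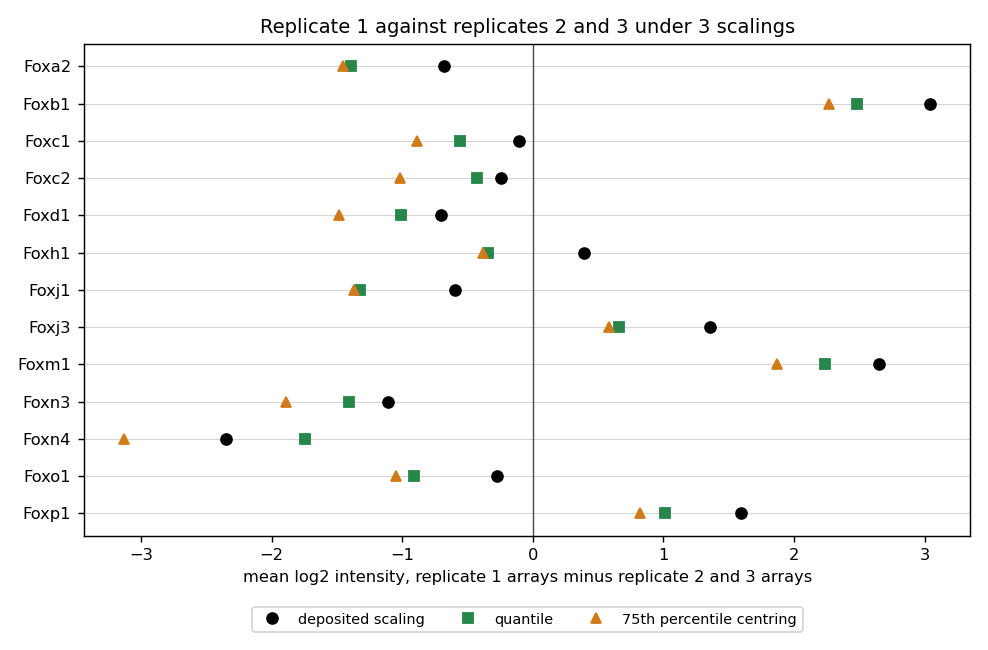
Mean log2 intensity of the replicate 1 arrays minus that of the replicate 2 and 3 arrays, both genotypes together, for the members well above background or called by replicate number, under 3 scalings. Foxb1, Foxj3, Foxm1 and Foxp1 stay right of 0, Foxh1 crosses it (0.39 under the deposited scaling, -0.34 after quantile normalization), and the other members stay left.

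Genes of other lists also differed by replicate number, and not all in 1 direction. Of 10 measured endothelial markers the F-test called 8 (80%), 6 higher and 2 lower on the replicate 1 arrays. Of 11 measured notochord, floor plate and endoderm markers it called 7 (63.6%), all higher there. Of 13 measured mitotic targets of Foxm1, 12 were well above background. The F-test called 10 of the 13 (76.9%), against 58.2% of all genes well above background and 27.8% of all probes. Of these 10 targets 9 were higher and 1 lower on the replicate 1 arrays. The lower one was Bub1, a spindle checkpoint kinase, at means of 241, 455 and 493 over replicate numbers 1, 2 and 3. The summed intensity of all 13 was 1940, 1354 and 1492 in the knockout and 1738, 1353 and 1500 in wild type. Between genotypes 7 of the 13 had a higher and 6 a lower mean in the knockout (median log2 difference 0.02), 0 of them called by limma and 0 at an unadjusted p under 0.05. Foxm1 itself differed by 0.22, a sign that turned when single arrays were left out. Of 10 measured neural tube markers 3 were called (30%), against 27.8% of all probes, and all 3 were higher on replicate 1. The list summed to 232, 92.5 and 103 in the knockout and 228, 87.8 and 127 in wild type, with 3 well above background (Sox2, Neurog1 and Tubb3). Tubb3 alone held 199, 69.0 and 80.3 of this in the knockout and 190, 64.6 and 96.4 in wild type. The 4 measured gut endoderm markers, all called and all higher on replicate 1, summed to 175, 61.0 and 71.4 in the knockout and 166, 65.9 and 73.8 in wild type. Most of this lay in Epcam and Cldn6. Epcam, known from other tissues too, read 107, 32.9 and 41.5 in the knockout and 96.6, 37.2 and 45.7 in wild type. Cldn6 read 50.4, 24.0 and 24.2 in the knockout and 51.8, 25.2 and 22.6 in wild type. Sox17 was above background on 2 arrays and Cer1 on 5. The 4 primitive blood markers summed to 3385, 6633 and 5847 in the knockout and 3781, 5687 and 6483 in wild type, a sum held almost wholly by 2 globin genes. Of these Hba-x was called as lower on replicate 1 and Hbb-bh1 was not called (limma adjusted p = 0.2), while Klf1, an erythroid regulator, was called as higher there. Another globin gene, Hbb-y, is not among these 4 but is in the list of 7 measured blood markers. It was called as higher on replicate 1 (limma adjusted p = 0.00674), at means of 1685.5, 985 and 1025 over replicate numbers 1, 2 and 3. Of the 7 blood markers 3 were called, 2 higher and 1 lower on replicate 1. Bub1, Tubb3, Epcam, Cldn6, Hba-x, Hbb-bh1, Hbb-y and Klf1 are named here after their values were seen. The part of these tissues in the Fox values by replicate number was not tested.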

How the data were processed

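The deposited values are 1-colour probe intensities on a linear scale, scaled so that array medians lie near 1. They hold 0 values at or below 0. Per the labels' protocols, digoxigenin-labelled cRNA was hybridised to Applied Biosystems arrays. The labels name a human array, while the organism and the probe annotation are mouse. No source used here names the scaling software, the background correction or any filter.

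All 33012 probes were converted to log2 without offset, filter or further normalization and fitted in limma 3.58.1 (R 4.3.3) on genotype, with an intensity trend in eBayes. Tests were two-sided, and p-values were adjusted by Benjamini-Hochberg across every probe and called at 0.05. Deviations from the group means correlated by 0.757, 0.442 and 0.374 within replicate numbers 1, 2 and 3, so arrays of 1 number were taken as pairs and a blocked fit is given beside the main one. Between number 2 of the knockout and number 3 of wild type the correlation was 0.419, and between number 3 and number 2 it was 0.397, so the pairing rests on replicate 1 standing apart. Intervals are 95%. The fits were tested on simulated data with 200 changed probes in each of 5 runs.

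The members, the gene lists, the background rule and the tests were chosen with earlier results of these data known. Values of all 6 arrays are given for members that are well above background, that separate the groups or that have 1 of the 5 smallest p-values in either fit. Of other genes, those past the threshold or with the 2 smallest p-values of a list could be named, and others are given as named after their values were seen or by their detection alone. All 38 members have the same symbol in the RefSeq gene table. Summaries used pandas 2.3.3 and numpy 2.4.6 under Python 3.11.15, and plots matplotlib 3.10.9.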

Additional observations from a re-analysis of the deposited data

How the results depend on the processing

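In none of the alternatives tried was a Fox member called between genotypes. The count of all probes called, 0 in the reported fit, was 2 with the replicate block, 2 with the block and quantile normalization, 3 with the block and centring on 75th percentiles, 1 with array weights, and 2 with pairs 2 and 3 alone, with or without the block. Combinations of the block with another scaling were chosen after seeing the data. At an unadjusted p under 0.05 there were 0 members in the reported fit, 4 with the block, 8 with array weights and 2 without wild-type replicate 1. The number of members well above background, 9 in the report, was 15 against the array median and 5 against the 99th percentile of receptor probes, 9 without both replicate 1 arrays, and 9 to 10 with single arrays left out. The F-test of replicate number called 1396 probes and 1 member without the intensity trend, and 17677 probes and 18 members after centring on 75th percentiles, against 9166 and 7.

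The sign of the genotype difference held for 19 members in every alternative, among them Foxa2, Foxc1, Foxd1, Foxh1 and Foxo4. Leaving out single arrays aside, 426 of 440 log2 differences kept their sign. The exceptions were Foxj1 at 0.026 after quantile normalization and 0.046 after centring, each with and without the block, Foxi1 at -0.078, Foxl1 at -0.37 and Foxo1 at 0.0040 with array weights, Foxl2 at 0.0090 with an offset of 1, and, with pairs 2 and 3 alone, Foxl2 at 0.065, Foxp1 at -0.081 and Foxq1 at -0.033, with or without the block. With single arrays left out the sign turned for 19 members, whose log2 differences ranged as follows. The range was -0.68 to 0.34 for Foxa3, -0.026 to 0.14 for Foxc2, -0.78 to 0.092 for Foxd3, -0.63 to 0.075 for Foxd4 and -0.97 to 0.067 for Foxf1. It was -0.19 to 0.30 for Foxi1, -0.84 to 0.076 for Foxi2, -0.24 to 0.21 for Foxj1, -0.99 to 0.058 for Foxj3 and -0.34 to 0.16 for Foxk1. It ran from -0.22 to 0.86 for Foxl1, -0.56 to 0.19 for Foxl2, -0.64 to 1.13 for Foxm1, -0.097 to 0.64 for Foxn3 and -0.20 to 1.63 for Foxn4. It spanned -0.21 to 0.019 for Foxo1, -0.56 to 0.50 for Foxp1, -0.088 to 1.02 for Foxp4 and -0.039 to 0.46 for Foxq1. The causes were not tested.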
